A study of Rattus norvegicus with 19 samples.

Results

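The astrocyte genes followed here are a list of 35 genes that mark astrocytes in the rodent brain or carry out their main tasks, from the filament gene *Gfap* to the metabolic gene *Ndrg2*. Members were matched to the files by gene symbol. Of the 35 listed genes 34 were found among the 32623 genes of the files, the exception being *Gpc5*, and all 34 passed the filter on low counts and were tested among 15440 genes. The fewest reads of any member in any library were 85, for *Cyp4f4*. RNA-seq was done on the hippocampus of 19 adult male Sprague Dawley rats, an outbred strain, with 1 library per animal. The animals came from lines in which CRISPR/Cas9 had deleted or duplicated, in every cell, the segment of rat chromosome 1 that matches human 16p11.2, between *Sult1a1* and *Spn*. The groups were wt littermates with 2 copies of the interval (n = 6), Del/+ with 1 copy (n = 4), Dup/+ with 3 copies (n = 5) and Del/Dup (n = 4), which carried a deleted and a duplicated chromosome and so had 2 copies. No treatment was given in the labels, and the exact age of these animals is not given in the sources used here.

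Astrocytes are the glial cells that take up glutamate and GABA from around synapses, turn glutamate into glutamine, buffer potassium, water and pH, store glycogen, and supply neurons with cholesterol-carrying lipoprotein particles. Neighbouring astrocytes are joined by gap junctions and send endfeet to blood vessels. When tissue is injured or inflamed, astrocytes become reactive, a state marked by more of the intermediate filaments Gfap and Vim. The comparisons ask whether the genes of these tasks differ in level between rats with 1, 2 and 3 copies of the interval.

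Levels are counts-per-million (CPM) of a library's reads on genes after scaling by the trimmed mean of M values. A gene was called changed where the quasi-likelihood F test of edgeR gave a Benjamini-Hochberg adjusted p under 0.05 over all 15440 genes. Log2 fold changes come with their standard error (SE) or 95% interval.

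Reads on genes totalled 16191192 to 38760645 per library, and pairs of libraries within a group differed by more than sampling noise (chi-square per degree of freedom 3.60 to 59.9), and none was taken as a repeat of another. Multi-mapped reads, which align at several places, made up 40.1% to 50.5% of counted lines in the 6 wt libraries, the 5 Dup/+ libraries and Del/+ replicate 4, and 57.8% to 76.3% in Del/+ replicates 1 to 3 and the 4 Del/Dup libraries. This split separates 3 of 4 Del/+ and all Del/Dup libraries from wt, so values without and with a term for it are given below. For wt replicate 5 the description of the label gave wt and the genotype field gave Dup/+. It was counted as wt. The median of its interval genes was -0.0382 from the wt mean on the log2 scale, where the other wt libraries spanned -0.0415 to 0.0212 and the Dup/+ libraries 0.490 to 0.580. The interval genes checked the genotypes: of 24 tested, the calls were 24 lower in Del/+ (median log2 fold change -1.01), 20 higher in Dup/+ (0.53) and 1 lower in Del/Dup (-0.07). No member lies in the interval. *Htra1* was the nearest, on the same chromosome with 52 tested genes between it and the interval in the gene order of the assembly GRCr8, and *Ppp1r3c*, *Slc7a10* and *Apoe* were 445, 504 and 660 tested genes away.

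For 29 of the 34 members RefSeq gave the 250 bases before the start of the gene (assembly GRCr8). Promoters of 3 members are shown: *Gfap* as the gene most used to mark astrocytes, *Ntsr2* as the member with the smallest p in both Del/+ and Del/Dup against wt, and *Slc39a12* as the member that varied most between libraries. The windows were chr10:88361662-88361911 on the minus strand, chr6:45152845-45153094 on the plus strand and chr17:82262107-82262356 on the plus strand. Capitals mark the letters TTCNNNGAA, which STAT factors bind, in *Ntsr2*, and the TATA box letters TATAAA in *Slc39a12*. None of the searched letters was in the window of *Gfap*.
Gfap: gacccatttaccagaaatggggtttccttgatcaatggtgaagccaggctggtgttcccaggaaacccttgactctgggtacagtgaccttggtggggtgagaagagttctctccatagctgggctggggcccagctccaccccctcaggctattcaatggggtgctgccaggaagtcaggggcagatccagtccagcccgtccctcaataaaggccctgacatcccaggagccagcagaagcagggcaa
Ntsr2: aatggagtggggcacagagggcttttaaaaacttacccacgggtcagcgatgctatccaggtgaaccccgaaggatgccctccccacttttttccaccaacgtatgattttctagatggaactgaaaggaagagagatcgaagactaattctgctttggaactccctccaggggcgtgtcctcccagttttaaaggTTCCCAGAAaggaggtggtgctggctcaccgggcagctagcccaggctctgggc
Slc39a12: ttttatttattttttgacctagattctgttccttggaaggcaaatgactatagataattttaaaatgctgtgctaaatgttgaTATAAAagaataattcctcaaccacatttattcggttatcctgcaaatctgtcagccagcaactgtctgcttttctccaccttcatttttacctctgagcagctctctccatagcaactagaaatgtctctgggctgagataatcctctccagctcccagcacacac
The members' windows had a median GC content of 57.6%, against 52% over 27457 promoters of the same length. On either strand, TTCNNNGAA was in 10.3% of the members' windows (*Acsbg1*, *Ntsr2* and *Ppp1r3c*) and in 7.52% of all windows. The TATA box letters were in 13.8% of the members' windows and 13.1% of all, the SP/KLF letters GGGCGG in 51.7% and 32.4%, and the letters CCAAT in 44.8% and 34.3%. ACAAT, a core bound by SOX factors, was in 13.8% of the members' windows and 29.6% of all, and it differs from CCAAT in its first letter, so no site counts for both.

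None of the 34 members was called changed by edgeR in any comparison. Between the 4 genotypes 0 of 34 members passed the test (smallest adjusted p = 0.135, for *Ppp1r3c*), against 0.823% of all tested genes. Against wt, 0 of 34 passed in Del/+ (smallest adjusted p = 0.110), in Dup/+ (0.253) and in Del/Dup (0.152), where the shares of all tested genes were 0.771%, 0.272% and 0.0907%. Del/+ against Dup/+ also called 0 of 34 (smallest adjusted p = 0.166, all genes 0.784%), as did Del/+ against Del/Dup (0.574, all genes 0.175%). The slope on the number of copies called 0 of 34 (0.188, all genes 0.576%). DESeq2, run as an alternative, called 2 members lower in Del/+ against wt, *Apoe* (-0.22, adjusted p = 0.0427) and *Ntsr2* (-0.25, adjusted p = 0.0435). These were 2 of the 33 members that DESeq2 gave an adjusted p in that comparison, near its share of 6.93% over the 9453 genes given one. It called 3 of 34 between the 4 genotypes (*Ppp1r3c*, *Cyp4f4* and *Ntsr2*), against 4.57% of all genes. DESeq2 called 0 members in Dup/+ against wt (all genes 0.518%) and in Del/Dup against wt (1.19%). It also called 0 in Del/+ against Dup/+ (all genes 1.73%), in Del/+ against Del/Dup (0.52%) and on the number of copies (1.05%). The 95% interval of the edgeR fit, without the term for multi-mapped share, lay within a 1.5-fold change either way for 33 of 34 members in Del/+ against wt, for 32 in Dup/+ and for 32 in Del/Dup. The members with wider intervals were *Slc39a12* in each of these comparisons and *Cyp4f4* in Dup/+ and Del/Dup. In tissue RNA such as this, fewer astrocytes and less RNA per astrocyte cannot be told apart.

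**Figure D1:**
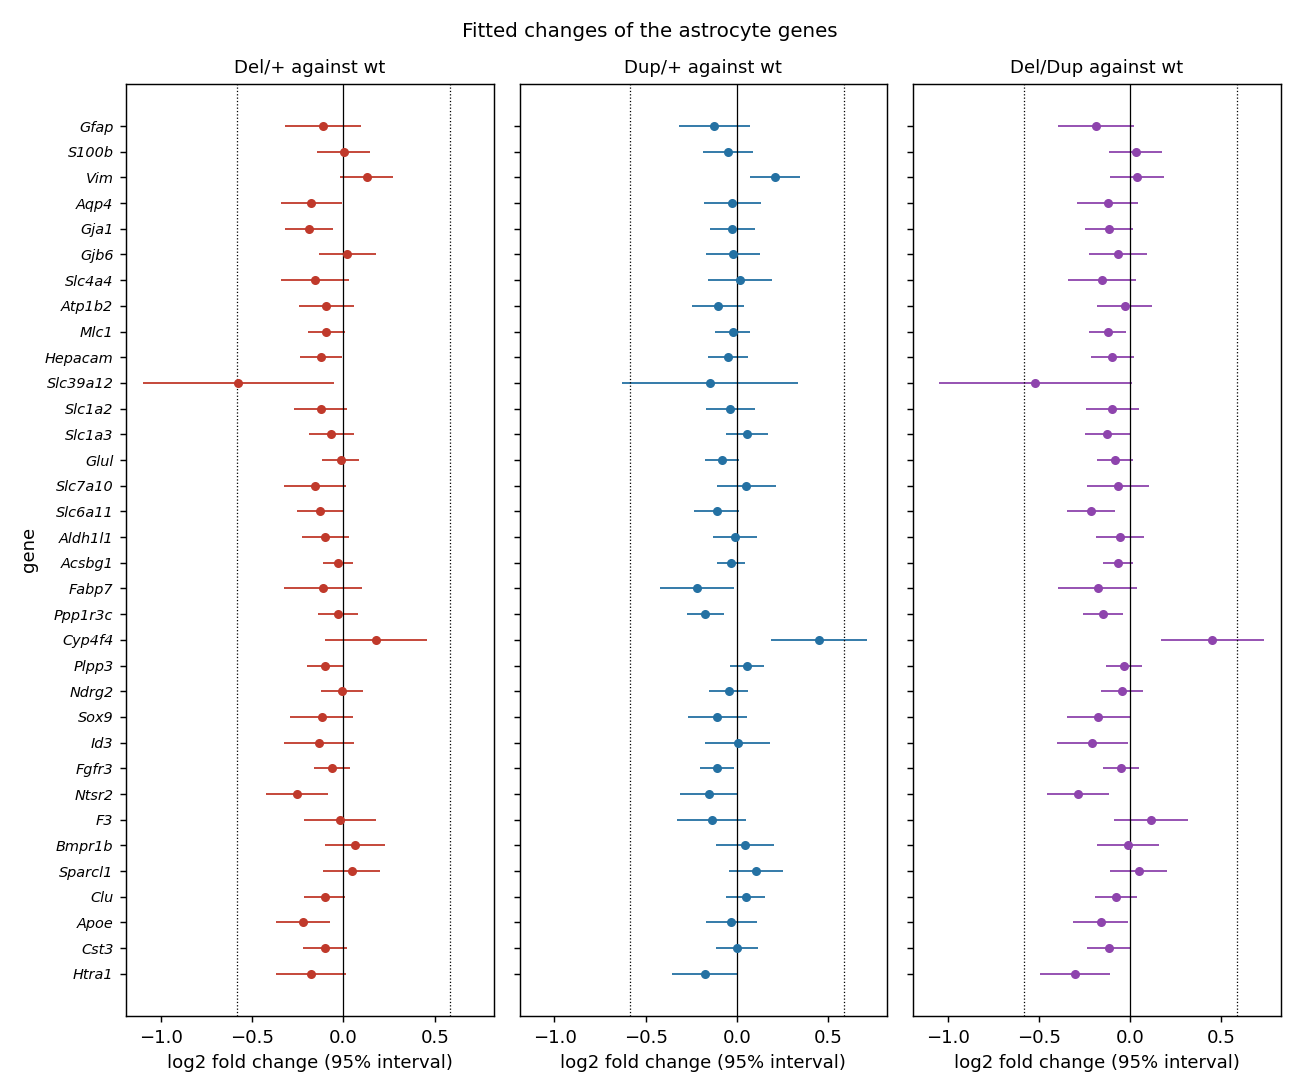
Fitted log2 fold changes (points) with 95% intervals (lines) of the 34 astrocyte genes in Del/+, Dup/+ and Del/Dup against the same 6 wt libraries; the solid line marks 0 and the dotted lines a 1.5-fold change. Most points in Del/+ and Del/Dup stand slightly left of 0, with medians of -0.10 in both, and *Slc39a12* has the widest interval in each panel.

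Small differences in 1 direction were common among the members of the deletion carriers. In Del/+ 28 of 34 members had a log2 fold change below 0 (82.4%, against 49.8% of all genes), and the median was -0.10 with quartiles of -0.13 and -0.02, a fold of 0.932. Del/Dup had 29 of 34 below 0 (all genes 49.7%) with a median of -0.10, a fold of 0.934. In Dup/+ 23 of 34 were below 0 (all genes 50.8%) and the median was -0.03, a fold of 0.978. The median over all genes was 0.00 in each. The 3 comparisons share the wt libraries, so their directions are not independent of each other. In the comparisons between carriers, which share the Del/+ libraries, 22 of 34 were below 0 in Del/+ against Dup/+ (median -0.07, all genes 49.7%) and 17 of 34 in Del/+ against Del/Dup (median 0.01, all genes 49.6%). The members whose groups did not overlap were few: 2 lower and 0 higher in Del/+ against wt (all genes 2.7% and 2.23%), 0 either way in Dup/+ (0.499% and 0.674%) and 1 lower and 0 higher in Del/Dup (1.22% and 1.33%). At an unadjusted p under 0.05 stood 7 members in Del/+, all lower (18.4% of all genes, 9.68% lower). Dup/+ had 5, of which 3 were lower and 2 higher (8.94% of all genes), and Del/Dup had 10, of which 9 were lower and 1 higher (16.2% of all genes, 8.06% lower). The corresponding counts were 10 between the 4 genotypes (18.9% of all genes), 6 in Del/+ against Dup/+ (13.5%), 1 in Del/+ against Del/Dup (8.48%) and 6 for the slope on copies (11.5%).

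The differences between libraries of the same genotype were of the same size as those between genotypes. The median over the members of a library's log2 CPM minus the wt mean spanned -0.078 to 0.079 over the wt libraries, -0.087 to 0.000 over Dup/+, -0.146 to -0.010 over Del/Dup and -0.129 to -0.051 over Del/+. Within wt, replicate 3 was above the wt mean in 31 of 34 members and replicate 6 in 27, while replicates 2 and 4 were above it in 10 each. All 4 Del/+ libraries lay below the median of wt, and replicates 1 and 3 (-0.051 and -0.074) stood within the wt range. Replicate 2 (-0.079) was just under it, and replicate 4, the Del/+ library with a low multi-mapped share, was the lowest (-0.129). Summed over the 34 members, the level was 16137 to 17941 CPM in wt, 15470 to 16238 CPM in Del/+, 16004 to 17647 CPM in Dup/+ and 15211 to 16663 CPM in Del/Dup. With a term for the multi-mapped share the medians against wt were -0.13 in Del/+, -0.03 in Dup/+ and -0.13 in Del/Dup, and 0 members were called. In that fit the Del/+ value rests on replicate 4 alone for the contrast with wt libraries of like share. Del/Dup has no library of low share. Its values there depend on a term estimated within Del/+ alone, from replicate 4 against replicates 1 to 3.

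**Figure D2:**
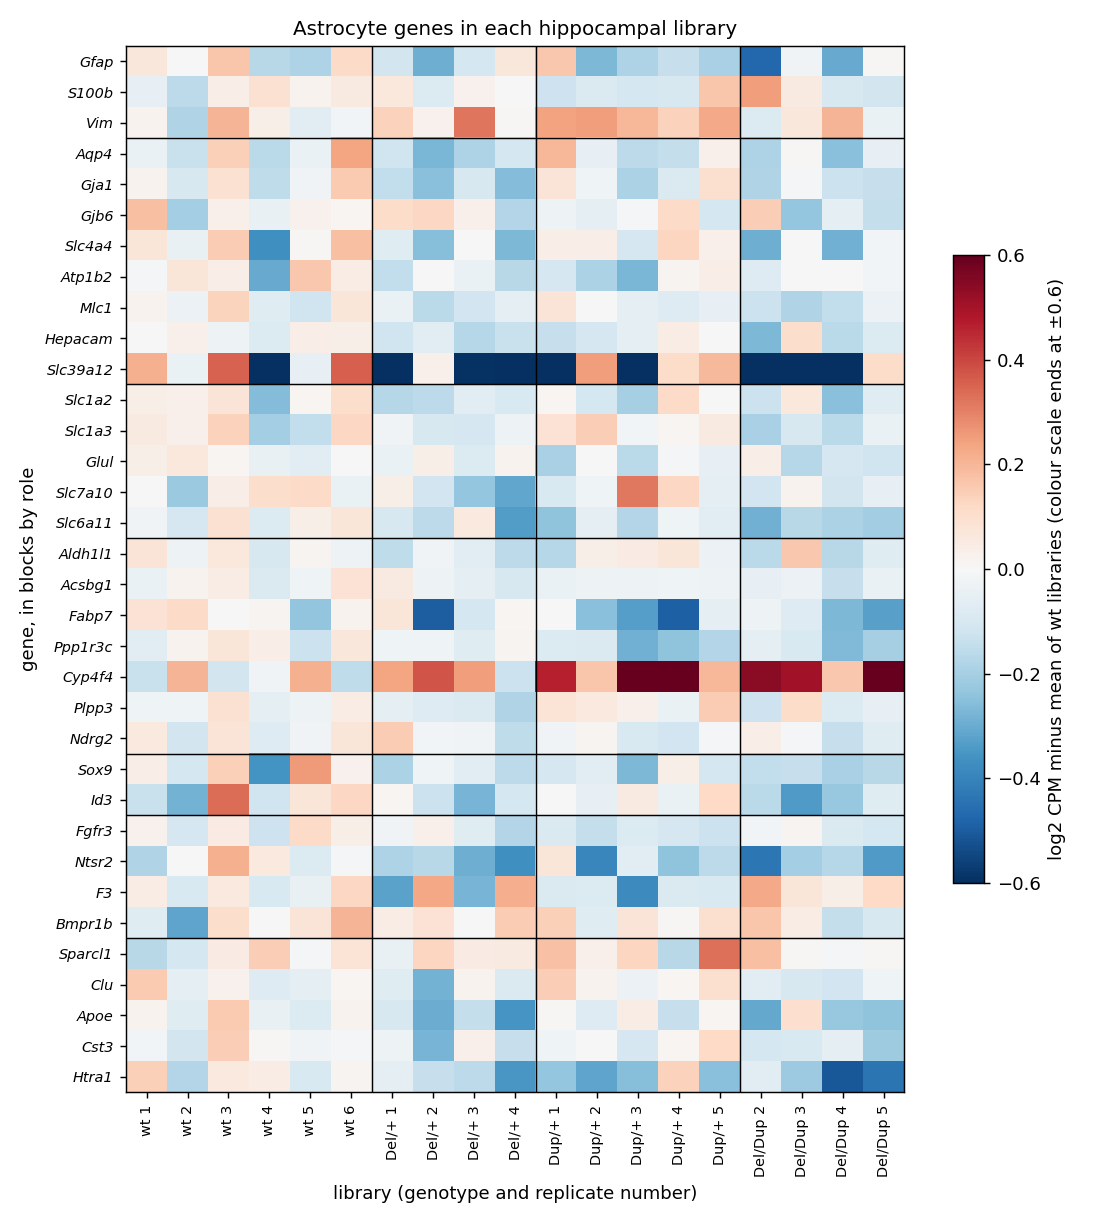
Each row is an astrocyte gene, in blocks by role, and each column a library; colour gives log2 CPM minus the mean of the 6 wt libraries, with values past the ends of the scale drawn in the end colour. Reds and blues mix in most columns; wt replicates 3 and 6 are above the wt mean in 31 and 27 of 34 rows, the Del/+ libraries in 9 to 10 and Del/Dup replicates 2, 4 and 5 in 8, 4 and 5, and *Slc39a12* and *Cyp4f4* have the deepest colours.

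Genes of glutamate and transmitter uptake stood at or slightly below wt in the deletion carriers. All 5 had a log2 fold change below 0 in Del/+ (median -0.13) and in Del/Dup (-0.10), and 3 of 5 in Dup/+ (-0.04), and none was called. *Slc6a11* encodes a GABA transporter of astrocyte processes and was the second member by p in Del/Dup. Its level was 59.4, 56.2, 64.3, 56.9, 61.7 and 63.5 CPM in wt replicates 1 to 6 and 49.3, 53.6, 52.8 and 52.1 CPM in Del/Dup replicates 2 to 5. The 2 groups did not overlap, which held for 1 member of 34 in this direction and for 1.22% of all genes. Its log2 fold change was -0.21 (SE 0.0628, edgeR adjusted p = 0.156), and -0.49 (adjusted p = 0.135) with the term for multi-mapped share. That term was estimated within Del/+ alone, as Del/Dup has no library of low share. *Slc6a11* in Del/+ spanned 47.8 to 62.6 CPM and in Dup/+ 50.9 to 59.1 CPM, both across the lower wt values.

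*Slc1a2* encodes the main glutamate transporter of the forebrain. It stood at 919 ± 79.0 CPM (SD, n = 6) in wt, 842 ± 28.6 (n = 4) in Del/+, 897 ± 75 (n = 5) in Dup/+ and 859 ± 78.3 (n = 4) in Del/Dup. *Slc1a3*, the other astrocyte glutamate transporter, was at 911 ± 87.6 CPM in wt, 869.9 ± 25.3 in Del/+, 945 ± 42.4 in Dup/+ and 834 ± 40.5 in Del/Dup. Its 4 Del/+ libraries (847 to 895 CPM) all lay below the 5 Dup/+ libraries (898 to 1006 CPM), by a gap that is small beside the spread of wt (788 to 998 CPM). *Glul*, glutamine synthetase, was at 1293 ± 42.3 CPM in wt and 1279 ± 48.1, 1223 ± 75.3 and 1219 ± 78.6 CPM in Del/+, Dup/+ and Del/Dup. *Slc7a10*, an exchanger of small neutral amino acids including D-serine, was at 23.1 ± 1.93 CPM in wt, 20.7 ± 2.21 in Del/+, 24.0 ± 2.91 in Dup/+ and 22.0 ± 0.989 in Del/Dup.

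Of the 8 genes for channels, junctions and ion transport, 7 were below 0 in Del/+ (median -0.14), 7 in Dup/+ (-0.03) and 8 in Del/Dup (-0.12), and none was called. *Gja1* encodes the connexin that forms most astrocyte gap junctions and was the third member by p in Del/+. Its level was 499.5, 461, 525, 444, 485 and 549.8 CPM in wt replicates 1 to 6 and 445, 413, 461 and 411 CPM in Del/+ replicates 1 to 4. Del/+ replicates 2 and 4 lay below every wt library, and replicates 1 and 3 within the wt range. Against wt the log2 fold change was -0.19 (SE 0.0634, edgeR adjusted p = 0.123). *Gja1* was at 485 ± 39.4 CPM in Dup/+ (n = 5) and 456 ± 24.1 CPM in Del/Dup (n = 4).

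*Gjb6*, the second astrocyte connexin, was at 37.8 ± 3.21 CPM in wt and 38.4 ± 3.52, 37.3 ± 2.13 and 36.0 ± 4.15 CPM in Del/+, Dup/+ and Del/Dup. The water channel *Aqp4*, which sits in endfeet, was at 692 ± 77.8 CPM in wt and 612 ± 32.2, 681 ± 70.4 and 636 ± 52.2 CPM in the same order. *Mlc1* and *Hepacam* encode partner membrane proteins of astrocyte junctions that are mutated in a childhood leukodystrophy. *Mlc1* was at 344 ± 22.5 CPM in wt and 322 ± 12.7, 338 ± 14.8 and 315 ± 14.0 CPM in the carriers. *Hepacam* was at 42.0 ± 1.37 CPM in wt and 38.5 ± 1.15, 40.5 ± 2.07 and 39.2 ± 4.36 CPM. For both, the carrier means were below that of wt and the highest Del/+ library stood above the lowest wt library. *Slc4a4*, a sodium bicarbonate cotransporter, was at 229 ± 29.6 CPM in wt and 206 ± 19.3, 232 ± 12.9 and 206 ± 23.5 CPM in the carriers. *Atp1b2*, the glial beta subunit of the sodium pump, was at 174 ± 18 CPM in wt and 163 ± 9.20, 162 ± 14.9 and 170.1 ± 4.43 CPM.

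*Slc39a12*, a zinc transporter and the last gene of this group, varied more between animals than any other member. Its highest library was 2.43 times its lowest, where the median member had a ratio of 1.37, and its biological coefficient of variation was 0.268 against a median of 0.0804 over the members and 0.0852 over all genes. In wt replicates 1 to 6 it stood at 30.0, 25.2, 33.1, 14.5, 25 and 33.2 CPM, and in Del/+ replicates 1 to 4 at 15.1, 26.4, 17.2 and 13.7 CPM. Dup/+ replicates 1 to 5 were at 16.3, 30.8, 15.4, 27.9 and 29.6 CPM, and Del/Dup replicates 2 to 5 at 15.8, 16.6, 13.9 and 28 CPM. Every genotype held low and high libraries with nothing between 17.2 and 25 CPM. Below that gap lay 9 of 19 libraries: 1 of 6 wt, 3 of 4 Del/+, 2 of 5 Dup/+ and 3 of 4 Del/Dup. This feature was chosen after the values were seen. Of 9282 genes with a mean of at least 10 CPM, 26 (0.28%) had a gap at least as wide (1.46-fold) with 4 or more libraries on each side.

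**Figure D3:**
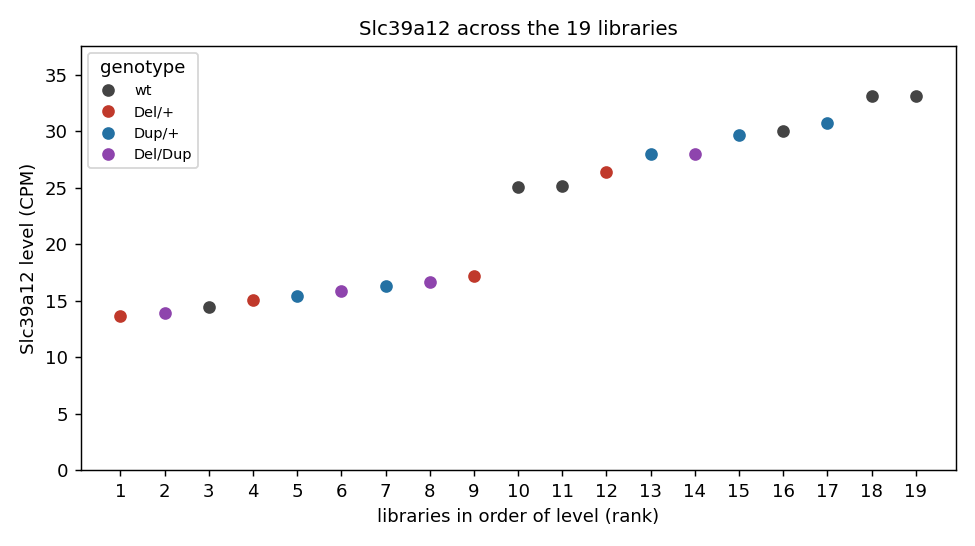
*Slc39a12* level (CPM, linear axis) of each of the 19 libraries, in order of level, coloured by genotype. The lower 9 libraries end at 17.2 CPM and the upper 10 begin at 25 CPM, with all 4 genotypes on both sides.

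The log2 fold changes of *Slc39a12* were the lowest of all members in Del/+ (-0.58, 95% interval -1.10 to -0.05, edgeR adjusted p = 0.227) and in Del/Dup (-0.52, -1.05 to 0.01, adjusted p = 0.312). In Dup/+ the value was -0.15 (-0.63 to 0.34, adjusted p = 0.899). The genes beside it in GRCr8 order varied less over the 19 libraries: the ratio of highest to lowest was 1.19 for *Stam*, 1.91 for *Mrc1*, 1.48 for *Cacnb2* and 1.63 for *Nsun6*.

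The genes of the cytoskeleton and calcium binding showed no common direction, with 1 of 3 below 0 in Del/+, 2 of 3 in Dup/+ and 1 of 3 in Del/Dup. *Gfap*, the filament gene by which astrocytes are usually stained, stood at 1097, 1049, 1174, 932, 922 and 1136 CPM in wt replicates 1 to 6. It was at 969.8, 854, 972 and 1099 CPM in Del/+, at 1169.8, 868, 922, 952 and 914 CPM in Dup/+ and at 756, 1033, 848 and 1052 CPM in Del/Dup. All carrier groups overlapped wt, and the lowest library was Del/Dup replicate 2. *Gfap* had log2 fold changes of -0.11, -0.12 and -0.19 in Del/+, Dup/+ and Del/Dup.

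*Vim* encodes vimentin, the filament protein of immature and reactive astrocytes that vessel cells also make, and was the third member by p in Dup/+. It was at 43.7, 38.0, 49.6, 44.2, 41.3 and 42.6 CPM in wt and 50.9, 51.3, 49.4, 47.4 and 50.5 CPM in Dup/+. All but 1 of the wt libraries lay below all of Dup/+, the exception being wt replicate 3. The log2 fold change was 0.21 (SE 0.0659, edgeR adjusted p = 0.324). *Vim* stood at 47.2 ± 4.83 CPM in Del/+ (n = 4) and 44.3 ± 4.00 CPM in Del/Dup (n = 4). *S100b*, a calcium-binding protein, was at 1042 ± 63.3 CPM in wt and 1042 ± 44.2, 1008 ± 89.1 and 1064 ± 127 CPM in Del/+, Dup/+ and Del/Dup.

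The transcriptional regulators were *Sox9*, which sets astrocyte fate, and *Id3*, an inhibitor of helix-loop-helix factors. *Sox9* was at 41.4 ± 5.90 CPM in wt and 38.1 ± 2.01, 38.4 ± 2.86 and 36.7 ± 0.655 CPM in Del/+, Dup/+ and Del/Dup. *Id3* was at 22.7 ± 3.55 CPM in wt and 20.6 ± 1.71, 22.7 ± 1.11 and 19.6 ± 1.52 CPM. Both were below 0 in Del/+ and in Del/Dup, and for both the wt libraries spread wider than those of any carrier group.

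Among receptors and surface proteins, *Ntsr2*, a neurotensin receptor of astrocytes, had the smallest p of any member in Del/+ and in Del/Dup. Its level in wt replicates 1 to 6 was 60.7, 68.6, 79.7, 71.7, 65.0 and 68.4 CPM. In Del/+ replicates 1 to 4 it was 60.5, 61.3, 56.2 and 53.3 CPM and in Del/Dup replicates 2 to 5 it was 50.9, 59.7, 61.2 and 54.3 CPM. Of these 8 libraries with a deleted chromosome, 6 lay below every wt library and 2 just above the lowest wt library. The log2 fold change was -0.26 in Del/+ (SE 0.0807, edgeR adjusted p = 0.110) and -0.29 in Del/Dup (SE 0.0817, adjusted p = 0.152). The Del/Dup value moved to -0.44 (adjusted p = 0.318) under the term for multi-mapped share and to -0.18 (adjusted p = 0.693) with the choroid plexus gene *Ttr* as a covariate. The former rests on a term estimated within Del/+ alone, as Del/Dup has no library of low share. Dup/+ overlapped wt and both other carrier groups, at 72.3, 52.5, 65.9, 58.3 and 61.8 CPM.

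*Fgfr3*, a receptor for fibroblast growth factors, was at 100 ± 6.30 CPM in wt and 95.9 ± 5.74, 92.6 ± 1.66 and 96.5 ± 3.87 CPM in Del/+, Dup/+ and Del/Dup. *Bmpr1b*, a receptor for bone morphogenetic proteins, was at 17.8 ± 2.13 CPM in wt and 18.6 ± 0.844, 18.3 ± 1.04 and 17.7 ± 1.74 CPM. *F3* encodes tissue factor, the trigger of blood clotting, which brain makes in astrocytes. It was at 23.5 ± 1.46 CPM in wt and 23.3 ± 4.83, 21.3 ± 1.82 and 25.5 ± 1.5 CPM, and its 4 Del/+ libraries spread from 18.8 to 27.6 CPM, beyond wt on both sides.

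The secreted proteins had 4 of 5 members below 0 in Del/+ (median -0.10), 2 of 5 in Dup/+ (0.00) and 4 of 5 in Del/Dup (-0.12). *Apoe*, the apolipoprotein of brain lipoprotein particles, was the second member by p in Del/+. In wt replicates 1 to 6 its level was 2682, 2512, 2945, 2559.9, 2498 and 2681 CPM and in Del/+ replicates 1 to 4 it was 2470.5, 2148, 2389.6 and 2066 CPM. The groups did not overlap, with Del/+ replicate 1 just under wt replicate 5. That held for 2 members of 34 in this direction, *Apoe* and *Plpp3*, and for 2.7% of all genes. The log2 fold change of *Apoe* was -0.22 (95% interval -0.37 to -0.07, edgeR adjusted p = 0.115), and -0.36 (adjusted p = 0.196) with the term for multi-mapped share.

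*Apoe* in Del/Dup was split, with 2134, 2255 and 2236 CPM in replicates 2, 4 and 5 and 2834 CPM in replicate 3. Without Del/Dup replicate 3, a library that also enters the shared estimate of the spread, *Apoe* was called in Del/+ (log2 fold change -0.22, edgeR adjusted p = 0.0439) and in Del/Dup (-0.25, adjusted p = 0.0432), where with all libraries it was -0.16 (adjusted p = 0.273). Without that library the share of all genes called was 1.8% in Del/+ and 1.38% in Del/Dup, where 1 of 34 members was called in each, and 2.67% between the 4 genotypes. The DESeq2 call of *Apoe* in Del/+ had the same size (-0.22). In Dup/+ *Apoe* stood at 2591 ± 134 CPM (n = 5), beside 2646 ± 167 CPM in wt (n = 6).

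*Htra1*, a secreted serine protease, had the lowest log2 fold change after *Slc39a12* in Del/Dup (-0.30, 95% interval -0.50 to -0.11, edgeR adjusted p = 0.164). It was at 139, 111, 131, 129.7, 118 and 127 CPM in wt and 119.8, 108, 88.3 and 92.8 CPM in Del/Dup, so that 3 of 4 Del/Dup libraries lay below every wt library. *Htra1* was at 111.5 ± 9.21 CPM in Del/+ and 111 ± 15.2 CPM in Dup/+, with a log2 fold change of -0.18 in both. *Clu*, the chaperone clusterin, was at 984 ± 60.7 CPM in wt and 916 ± 79.4, 1017 ± 51.6 and 932 ± 25.1 CPM in Del/+, Dup/+ and Del/Dup. *Cst3*, an inhibitor of cysteine proteases, was at 1002 ± 59.3 CPM in wt and 934 ± 86.0, 1002 ± 55.7 and 924 ± 41.6 CPM. *Sparcl1*, a secreted matrix protein that promotes synapse formation, was at 2539 ± 207 CPM in wt and 2619 ± 127, 2730.5 ± 343 and 2621 ± 166 CPM, and was the member of this group above 0 in Del/+ and in Del/Dup.

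Of the 7 metabolic genes, 6 had a log2 fold change below 0 in Del/+ (median -0.03), 5 in Dup/+ (-0.03) and 6 in Del/Dup (-0.06), *Cyp4f4* being the exception in Del/+ and in Del/Dup. *Ppp1r3c*, which targets a phosphatase to glycogen and so favours glycogen storage, had the smallest p of the members in Dup/+ and between the 4 genotypes. Its level was 99.0, 105, 109, 106, 94.7 and 109 CPM in wt and 97.9, 97.6, 84.9, 87.8 and 91.9 CPM in Dup/+. Of the Dup/+ libraries 3 lay below all wt libraries and 2 among them. The log2 fold change was -0.17 (SE 0.0487, edgeR adjusted p = 0.253). *Ppp1r3c* in Del/+ was at 102, 102, 98.5 and 105 CPM, all above Dup/+, a difference of 0.14 (95% interval 0.03 to 0.26, adjusted p = 0.244). No overlap in that direction held for 1 member of 34 and for 2.33% of all genes. Del/Dup stood at 99.9, 97.4, 86.4 and 90.3 CPM, with a log2 fold change against wt of -0.15 (adjusted p = 0.195).

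*Cyp4f4*, a cytochrome P450 of fatty acid hydroxylation, had the highest log2 fold changes of the members and the lowest read counts. It stood at 3.43, 4.33, 3.48, 3.70, 4.36 and 3.38 CPM in wt. In Dup/+ it was at 5.2, 4.22, 6.57, 5.85 and 4.31 CPM and in Del/Dup at 5.47, 5.34, 4.21 and 5.80 CPM. The lower libraries of both groups (4.21 to 4.31 CPM) fell within the wt range and the others lay above it. Fitted log2 fold changes were 0.45 in Dup/+ (SE 0.127, edgeR adjusted p = 0.253) and 0.45 in Del/Dup (SE 0.135, adjusted p = 0.162), and 0.18 in Del/+, which stood at 4.31 ± 0.612 CPM. With a term for the multi-mapped share the Del/Dup value was 0.04. That term was estimated within Del/+ alone, as Del/Dup has no library of low share. The Dup/+ value was 0.45 with the term and 0.45 within the libraries of low share alone. All wt and Dup/+ libraries had a low share, so neither fit tests the Dup/+ value against it.

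**Figure D4:**
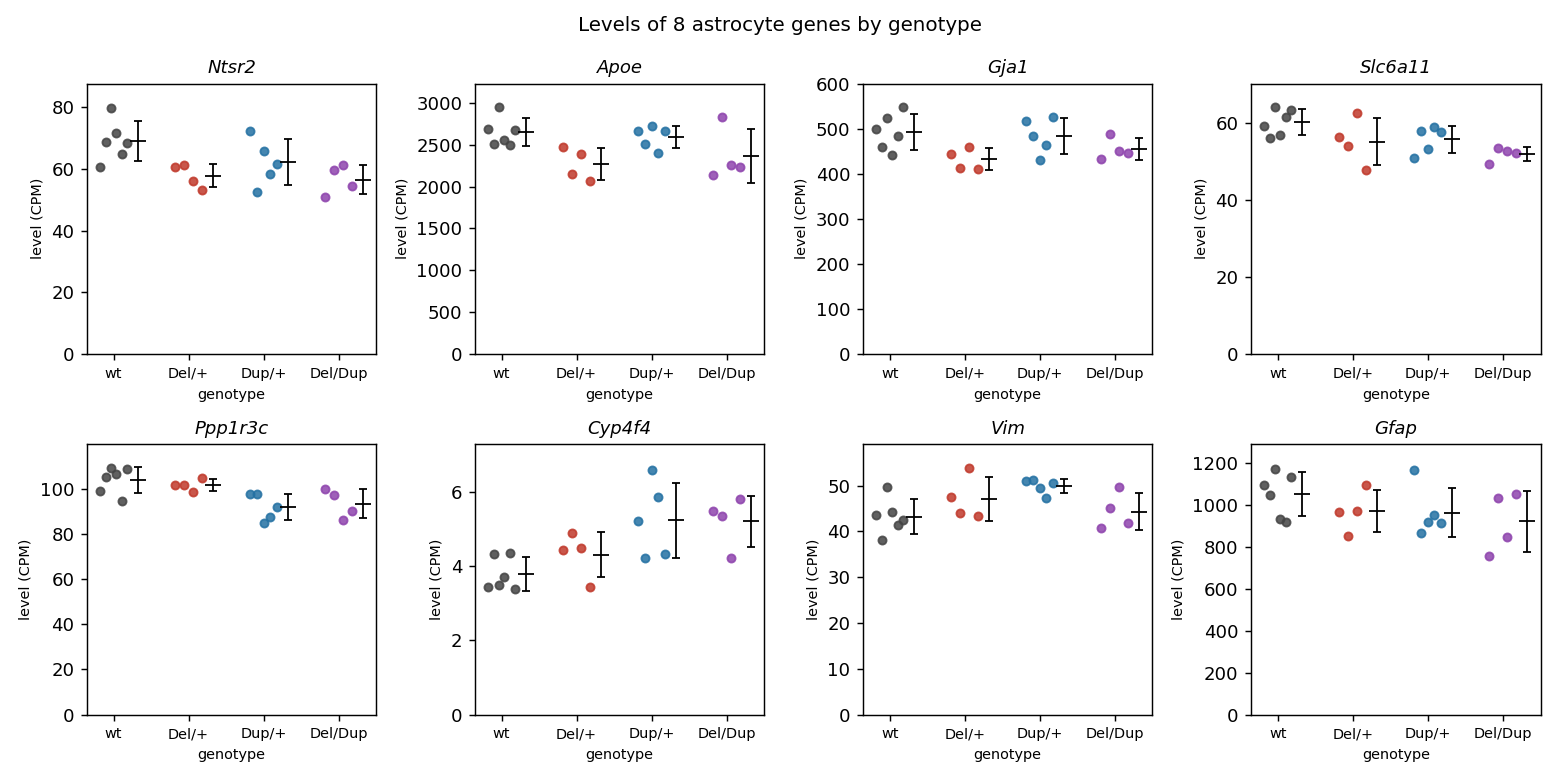
Levels (CPM, linear axes from 0) of 8 astrocyte genes in every library, by genotype; points are libraries and the black bar and whiskers the group mean and SD. *Apoe* in Del/+ and *Slc6a11* in Del/Dup lie wholly below wt, and the other carrier groups overlap wt or nearly so.

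*Plpp3*, a lipid phosphatase of the cell surface, was at 377, 377, 409, 369.8, 375 and 396 CPM in wt and 368, 364, 361 and 339 CPM in Del/+, without overlap but with a log2 fold change of only -0.10 (edgeR adjusted p = 0.260). Del/+ also lay below all Dup/+ libraries (374 to 426 CPM; -0.16, adjusted p = 0.166), as did *Slc1a3*, so that 2 of 34 members did so, against 2.97% of all genes. Del/Dup stood at 375 ± 27 CPM. *Plpp3* had the smallest p of the slope on copies as well (0.08 per copy, SE 0.0243, adjusted p = 0.188). *Fabp7*, a fatty acid binding protein of radial glia and astrocytes, was at 57.3 ± 4.67 CPM in wt and 52.8 ± 8.68, 49.2 ± 6.81 and 50.7 ± 5.05 CPM in Del/+, Dup/+ and Del/Dup. *Aldh1l1*, a folate enzyme much used to label astrocytes, was at 29.9 ± 1.34 CPM in wt and 27.9 ± 1.31, 29.8 ± 1.98 and 28.8 ± 3.21 CPM. *Ndrg2*, a cytoplasmic protein abundant in astrocytes, was at 1054 ± 59.7 CPM in wt and 1048 ± 91.5, 1022 ± 40.0 and 1021 ± 53.8 CPM. *Acsbg1*, an acyl-CoA synthetase, was the steadiest member, with a ratio of 1.17 between its highest and lowest library, 250.3 ± 11 CPM in wt and 245 ± 10.9, 245 ± 0.893 and 239 ± 8.07 CPM.

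A further list of 42 astrocyte genes, of which 39 were in the files and tested, gave 1 call against wt, in Del/+ (2.56% of the list, all genes 0.771%). It also gave 1 call between the 4 genotypes (all genes 0.823%). *Grin2c*, the NMDA receptor subunit found in astrocytes and cerebellar granule cells, was lower in Del/+ by a log2 fold change of -0.30 (SE 0.0574, edgeR adjusted p = 0.0137). It was at 102 ± 5.98 CPM in wt (n = 6; 95.2 to 110.3) and 82.8 ± 4.44 CPM in Del/+ (n = 4; 77.8 to 87.5). The call was lost with a term for the multi-mapped share (-0.22, adjusted p = 0.329), when wt replicate 5 was moved to Dup/+ (-0.29, adjusted p = 0.0623), with *Ttr* as a covariate (-0.29, 0.0503) and without Del/+ replicate 2 (-0.27, 0.0960), the last 3 with differences close to the reported one. *Grin2c* was at 87.3 ± 2.42 CPM in Dup/+ and 90.5 ± 9.58 CPM in Del/Dup, and neither passed (adjusted p = 0.130 and 0.181), although DESeq2 called it in Dup/+ too, as 1 of 39 (all genes 0.518%). The list's medians were -0.02, -0.02 and -0.05 in Del/+, Dup/+ and Del/Dup.

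No gene of reactive astrocytes was called by edgeR in any comparison. Of 31 listed, 30 were in the files and 28 were tested, with 0 calls against wt and medians of 0.05, 0.08 and 0.06 in Del/+, Dup/+ and Del/Dup. At an unadjusted p under 0.05 were 2, 2 and 4 of them (7.14%, 7.14% and 14.3%, where all genes gave 18.4%, 8.94% and 16.2%), and DESeq2 called 0 in each, giving an adjusted p to only 6 of the 28 in Del/+. Their summed level was 167.8 to 180.6 CPM in wt, 167.7 to 184.2 CPM in Del/+, 173.3 to 200.7 CPM in Dup/+ and 172.1 to 183.3 CPM in Del/Dup. The smallest p values belonged to *Lgals3* in Del/+ (galectin, at 0.630 ± 0.0836 CPM in wt and 1.06 ± 0.200 in Del/+, adjusted p = 0.0797) and *Psmb8* in Dup/+ (an immunoproteasome subunit, at 0.395 ± 0.158 and 0.693 ± 0.124 CPM, adjusted p = 0.326).

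Markers of other cells varied more than the astrocyte genes in some libraries, and their part in the values above was not tested beyond the *Ttr* term given here. The 12 tested choroid plexus markers of 13 had medians of 3.01, 1.39 and 3.31 in Del/+, Dup/+ and Del/Dup, with 0 called by edgeR. By library, their median log2 CPM minus the wt mean was 0.03, -0.21, 4.85 and 1.47 in Del/+ replicates 1 to 4. Of these, replicates 1 and 2 stood within the wt range (-0.42 to 0.85). Dup/+ replicates 1 to 5 were at -0.32, 2.99, 0.23, -0.02 and 1.62, and Del/Dup replicates 2 to 5 at 4.55, 1.59, 3.87 and 0.75. At an unadjusted p under 0.05 were 12, 2 and 12 (all genes 18.4%, 8.94% and 16.2%). DESeq2 called 2, 0 and 6, all higher (all genes 6.93%, 0.518% and 1.19%). In Del/+ it gave only 3 of them an adjusted p. *Otx2* was at 0 in every library. *Kl* (4.11, adjusted p = 0.133) and *Kcnj13* (3.20, adjusted p = 0.138) had the smallest p values, both in Del/Dup. *Ttr*, transthyretin, ranged from 0.921 to 27.4 CPM in wt, 2.38 to 1126 CPM in Del/+, 2.85 to 352 CPM in Dup/+ and 34.4 to 1087 CPM in Del/Dup. With *Ttr* as a covariate the astrocyte medians were -0.09, -0.02 and -0.11 and 0 members were called. The 10 oligodendrocyte markers had medians of 0.34, 0.14 and 0.19. At an unadjusted p under 0.05 were 9, 2 and 3 of them (90%, 20% and 30%, all genes 18.4%, 8.94% and 16.2%). *Opalin*, a myelin protein, was called higher in Del/+ (0.56, SE 0.116, edgeR adjusted p = 0.0241, 132 ± 33 against 89.8 ± 12.7 CPM). This call was kept in 20 of 28 alternatives over which the difference spanned 0.40 to 0.96. Without Del/+ replicate 4 the difference was 0.40 (edgeR adjusted p = 0.112), and the call was also lost without Del/+ replicate 2 (0.53, adjusted p = 0.123) and without wt replicate 1, 3 or 5 (0.52, 0.55 and 0.53, adjusted p = 0.0662, 0.0627 and 0.0553). It was lost as well with *Ttr* in the fit (0.54, adjusted p = 0.0721), with only the compared groups fitted (0.57, adjusted p = 0.0682) and with wt replicate 5 moved to the Dup/+ group (0.53, adjusted p = 0.0527), where the difference stayed close to 0.56. DESeq2 called 8 of the 10 higher in Del/+ (all genes, either direction, 6.93%) and 0 in Dup/+ (0.518%) and Del/Dup (1.19%). Their summed level was 5356 to 6939 CPM in wt, 6313 to 9496 CPM in Del/+, 6323 to 7244 CPM in Dup/+ and 6216 to 7600.4 CPM in Del/Dup.

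The remaining lists had 0 calls against wt by edgeR. At an unadjusted p under 0.05 in Del/+, Dup/+ and Del/Dup were 5, 2 and 4 of 10 neuron and 3, 2 and 1 of 10 microglia markers. Ependymal markers gave 3, 4 and 3 of 9, and vascular and meningeal markers 3, 1 and 1 of 9. All genes gave 18.4%, 8.94% and 16.2%. DESeq2 called 3 of 10 neuron markers lower in Del/+ (all genes, either direction, 6.93%). It also called *Dcn* higher there, 1 of the 6 vascular and meningeal markers given an adjusted p. In Del/Dup it called 1 of 10 neuron markers lower (all genes 1.19%). None of the ependymal markers was given an adjusted p in Del/+. The 10 neuron markers had medians of -0.02, -0.03 and -0.09 in Del/+, Dup/+ and Del/Dup, and *Nrgn* (-0.21, adjusted p = 0.0797) and *Slc17a7* (-0.24 in Del/Dup, adjusted p = 0.139) had the smallest p values. The neuron markers summed to 12278 to 13562 CPM in wt, 11791 to 12847 CPM in Del/+, 11741 to 12978 CPM in Dup/+ and 11378 to 12231 CPM in Del/Dup. Microglia markers (10 tested) had medians of -0.13, -0.11 and -0.04, with *Csf1r* (-0.17 in Del/+, adjusted p = 0.123) and *Cx3cr1* (-0.20 in Dup/+, adjusted p = 0.193) first by p. Ependymal markers (9 of 12 tested) had medians of 0.36, 0.37 and 0.32, led by *Mlf1* (0.97 in Del/+, adjusted p = 0.0605) and *Pifo* (0.74 in Dup/+, adjusted p = 0.253). Vascular and meningeal markers (9 of 12 tested, *Cldn5* and *Col1a2* at 0 in every library) had medians of -0.06, -0.08 and -0.09, led by *Acta2* (-0.48 in Del/+, adjusted p = 0.106) and *Dcn* (0.38 in Del/+, adjusted p = 0.121). *Dcn*, the matrix proteoglycan decorin, was called higher in Del/+ than in Dup/+ (0.64, SE 0.135, edgeR adjusted p = 0.0291, 23.5 ± 2.19 against 15.2 ± 4.16 CPM) and lower with more copies (-0.32 per copy, adjusted p = 0.0209). These calls were kept in 22 of 28 and 24 of 27 alternatives, the differences spanning 0.52 to 0.77 and -0.38 to -0.26. Both were lost with the term for multi-mapped share (0.57 and -0.30, adjusted p = 0.295 and 0.184), without Dup/+ replicate 2 (0.59 and -0.29, adjusted p = 0.0874 and 0.0741) and without Del/+ replicate 3 (0.58 and -0.29, adjusted p = 0.0689 and 0.0738). The first was also lost without Dup/+ replicate 5 (0.64, adjusted p = 0.0691), with the replicate block (0.63, adjusted p = 0.0598) and with only the compared groups fitted (0.64, adjusted p = 0.101).

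**Figure D5:**
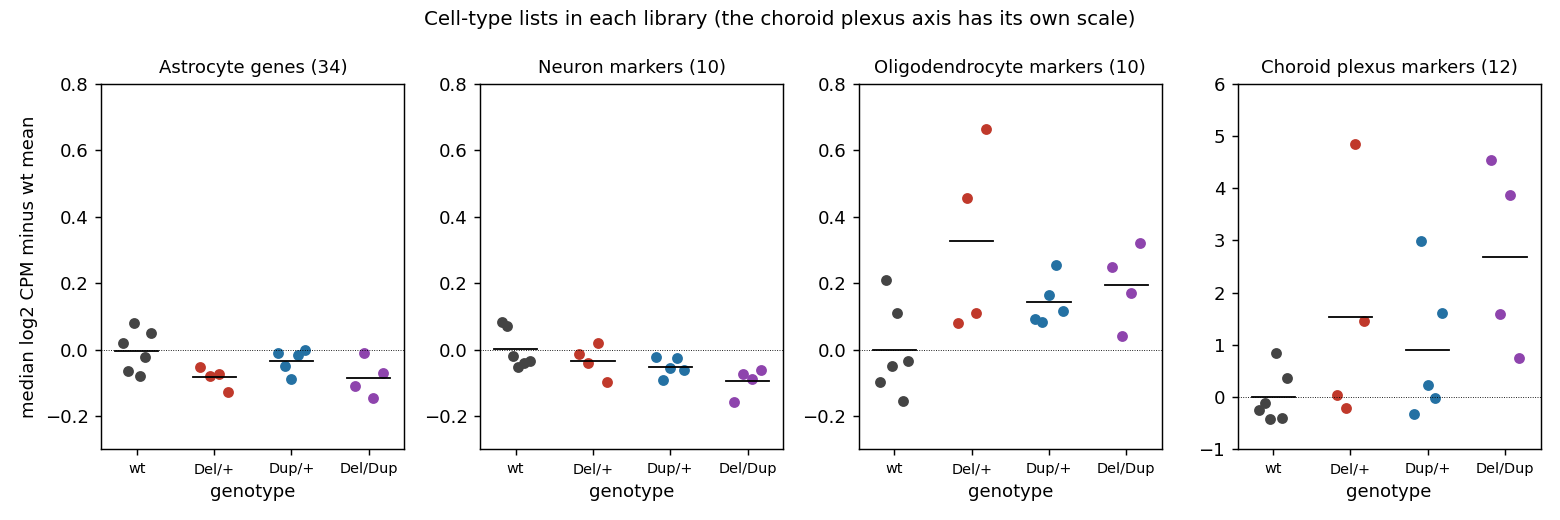
Median over a list of log2 CPM minus the wt mean, for each library (points) and genotype (bar: mean), for the 34 astrocyte genes, 10 neuron, 10 oligodendrocyte and 12 choroid plexus markers; the last panel has its own scale. Astrocyte medians stay between -0.146 and 0.079 in all 19 libraries, while choroid plexus medians reach 4.85.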

How the data were processed

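RNA-seq was run on the hippocampus of 19 male rats, and samples were grouped by the description field of the labels. The authors made stranded total RNA libraries (the protocol names rRNA removal, the molecule field polyA RNA), obtained short single-end reads, mapped them to rn6 by Hisat2 and assigned them to Ensembl genes by HTSeq-count. Each deposited file holds the unnormalized read counts per gene of 1 library. The summary lines of the counting program were left out of library sizes; they held reads without a gene (6.94% to 16.1%), ambiguous reads (0.142% to 0.334%) and multi-mapped reads (40.1% to 76.3% of counted lines).

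From the counts, 15440 of 24345 genes with a read passed filterByExpr. Tests used edgeR's quasi-likelihood fit (version 4.0.16, R 4.3.3), with TMM scaling, group means fitted over all 19 libraries, a prior count of 2, and Benjamini-Hochberg adjustment over all tested genes at 0.05. The slope on copies was a separate fit. Each SE is the log2 fold change over the root of its F. The common biological coefficient of variation was 0.101; for genes with few reads, such as *Cyp4f4* (85 reads in its lowest library), counting error is of similar size. P-values weigh a group difference against the spread between these animals. In the main fit they do not account for the split in multi-mapped share. The fit was tested on simulated data. Alternatives were DESeq2 1.42.0, other scalings, no filter, the other label of wt replicate 5, a term for multi-mapped share, a replicate block, *Ttr* as a covariate, subsets of libraries, and each library left out. FCROS, used by the study, was not run here.

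The members and all gene lists were chosen with earlier results of these data known. Every member found is given by its level in each genotype (by library, range or mean ± SD), and full statistics are given for members called in a comparison and the 3 with the smallest p in each comparison against wt. Genes of other lists were named where called against wt, and otherwise the 2 with the smallest p of a list. The further features named were chosen after their values were seen: the gap in *Slc39a12*, the values of *Htra1*, *Plpp3* and *Slc1a3* by library, and *Otx2*, *Cldn5*, *Col1a2* and *Ttr*. Levels were not compared between genes, since no rn6 gene lengths were used here. Symbols come from the files; gene order comes from RefSeq's GRCr8 table. Promoter sequences are from RefSeq (GRCr8) and were matched by symbol for 29 of 34 members.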

Additional observations from a re-analysis of the deposited data

Results flagged for a closer look

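Of 140 sets of values (a member in a genotype group of 4 to 6 libraries, or the members' median per library), 8 held a library set apart from the rest by Dixon's test at the 95% level, where chance alone gives about 1 in 20. *Gfap* was at 1169.8 CPM in Dup/+ replicate 1, against 868 to 952 CPM in the other Dup/+ libraries. *Slc1a2* stood at 765 CPM in wt replicate 4, below the 923 to 985 CPM of the other wt libraries. *S100b* reached 1166 CPM in Dup/+ replicate 5, where the others lay at 954 to 979 CPM. *Acsbg1* was at 227 CPM in Del/Dup replicate 4, against 242 to 244 CPM. *Sparcl1* was at 2868 CPM in Del/Dup replicate 2, against 2522 to 2546 CPM. *Fabp7* was at 48.5 CPM in wt replicate 5, the library whose label fields disagree, against 57.1 to 61.7 CPM. *F3* was at 18 CPM in Dup/+ replicate 3, against 22.1 to 22.2 CPM. *Htra1* was at 138 CPM in Dup/+ replicate 4, against 101 to 107 CPM.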

How the results depend on the processing

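No member was called under any alternative other than 2. DESeq2 called 2 members in Del/+ against wt (*Apoe* and *Ntsr2*, all genes 6.93%) and 3 between the 4 genotypes (*Ppp1r3c*, *Cyp4f4* and *Ntsr2*, all genes 4.57%). Leaving out 1 library at a time gave 0 to 1 call in Del/+ against wt, in Del/Dup against wt and between the 4 genotypes, where the call was *Apoe* without Del/Dup replicate 3 (all genes then 1.8%, 1.38% and 2.67%), and 0 in the other comparisons. The cause was not tested. The median over the members moved by less than the spread between libraries (pooled SD 0.0505) under every alternative fitted over all 4 groups. It spanned -0.13 to -0.08 for Del/+, -0.05 to -0.02 for Dup/+ and -0.13 to -0.07 for Del/Dup against wt. For fits on only some groups, or only libraries of high or low share, the median was not computed. With the replicate number as a block, 0 members were called in each comparison and the medians were -0.09, -0.02 and -0.07. The deviations of same-numbered libraries had a median correlation of 0.0139 (24 pairs, 2 over 0.1). For libraries of different number it was 0.00149 (110 pairs, 21 over 0.1). This cannot show whether same-numbered animals share more than a number. With wt replicate 5 counted as Dup/+, 0 members were called. *Cyp4f4* in Del/Dup spanned 0.04 to 0.67 and *Slc6a11* in Del/Dup -0.49 to -0.19, the extremes furthest from the reported values coming with the term for multi-mapped share or *Ttr*. With the former, *Apoe* in Del/+ was at -0.36 and *Ntsr2* in Del/Dup at -0.44, and with *Ttr* in the fit *Ntsr2* in Del/Dup was at -0.18. The term for multi-mapped share was estimated within Del/+ alone, so the Del/Dup values under it depend on the Del/+ libraries. Groups of 4 to 6 libraries limit the precision.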
